A study of Mus musculus with 7 samples.

Results

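The Hox genes are homeobox transcription factor genes that lie side by side in the HoxA, HoxB, HoxC and HoxD clusters. They were taken here by symbol: every probe set annotated to a single gene named Hoxa, Hoxb, Hoxc or Hoxd followed by a number, without antisense transcripts, and for each gene its brightest probe set by mean of 7 arrays. This gave 31 of the 12393 genes measured, 9 from HoxA, 9 from HoxB, 6 from HoxC and 7 from HoxD, of 39 Hox genes in the RefSeq mouse annotation. Hoxb8, Hoxd3 and Hoxd4 shared their probe sets with a neighbouring paralog, and the remaining genes were not analysed here. The samples were stem cells of blood from mouse embryos, taken from the fetal liver at embryonic day 14.5 and sorted for absence of lineage antigens and presence of Sca-1, c-Kit and CD150. The 3 TFIIAα-β nc/nc samples carried, on both alleles, a general transcription factor TFIIA that the protease Taspase1 cannot cleave, and pooled 2, 2 and 4 littermates. The 4 wild-type samples came from the same type of cross between nc/+ parents and were made of 1, 1, 4 and 3 embryos. The allele was inherited from the parents, so the other liver cells carried it too, and the labels used here give no strain. The samples are called biological replicates.

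Hox proteins bind DNA through the homeodomain, mostly together with the TALE cofactors Meis and Pbx, and set position along the body axis of the embryo. In a cluster the genes are numbered by paralog group from the 3' end, and genes of one group in different clusters have similar proteins. Blood stem cells use mainly the middle and late groups of HoxA and some HoxB genes, Hoxa9 is a regulator of stem cell number, and forced Hoxb4 expands stem cells. The histone methyltransferase MLL, encoded by Kmt2a and also a substrate of Taspase1, maintains Hox transcription, and Polycomb complexes keep Hox genes silent. TFIIA acts with the TATA-binding protein at the start of genes. The genotype comparison asks whether transcript levels of the Hox genes in the sorted samples differ when TFIIA stays uncut.

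The DNA ahead of the genes described below is shown because TFIIA and the TATA-binding protein act there. The windows are the 250 bases before the annotated start, 5' to 3' on the strand of the gene, from RefSeq on GRCm38.p6, and capitals mark TATAAA on either strand (TTTATA is its reverse complement). The first 4 belong to the HoxA and HoxB genes described first: chr6:52227371-52227620 on the minus strand for Hoxa9, chr6:52204588-52204837 on the minus strand for Hoxa5, chr6:52218574-52218823 on the minus strand for Hoxa7 and chr11:96318017-96318266 on the plus strand for Hoxb4. The last 2 are the measured Hox genes whose window holds the motif, chr6:52234940-52235189 on the minus strand for the inner of the 2 Hoxa10 starts and chr2:74667975-74668224 on the plus strand for Hoxd13.
Hoxa9: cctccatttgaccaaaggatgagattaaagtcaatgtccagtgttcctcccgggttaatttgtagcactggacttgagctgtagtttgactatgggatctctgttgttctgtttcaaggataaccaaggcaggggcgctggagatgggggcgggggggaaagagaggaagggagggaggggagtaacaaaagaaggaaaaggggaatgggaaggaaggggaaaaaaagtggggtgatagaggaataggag
Hoxa5: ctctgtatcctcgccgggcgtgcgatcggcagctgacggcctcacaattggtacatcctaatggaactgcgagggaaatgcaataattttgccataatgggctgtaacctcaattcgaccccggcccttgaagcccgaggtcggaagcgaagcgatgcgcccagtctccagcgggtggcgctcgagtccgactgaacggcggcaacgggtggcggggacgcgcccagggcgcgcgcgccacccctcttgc
Hoxa7: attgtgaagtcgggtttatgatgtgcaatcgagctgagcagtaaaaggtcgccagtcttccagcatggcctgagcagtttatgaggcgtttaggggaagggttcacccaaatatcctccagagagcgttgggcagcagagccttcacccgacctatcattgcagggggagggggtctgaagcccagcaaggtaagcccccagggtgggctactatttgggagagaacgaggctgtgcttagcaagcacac
Hoxb4: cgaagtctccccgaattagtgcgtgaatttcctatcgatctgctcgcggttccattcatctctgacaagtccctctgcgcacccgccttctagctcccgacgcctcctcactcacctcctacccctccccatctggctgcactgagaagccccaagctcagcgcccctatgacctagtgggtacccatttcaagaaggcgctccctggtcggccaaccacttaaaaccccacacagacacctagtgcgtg
Hoxa10: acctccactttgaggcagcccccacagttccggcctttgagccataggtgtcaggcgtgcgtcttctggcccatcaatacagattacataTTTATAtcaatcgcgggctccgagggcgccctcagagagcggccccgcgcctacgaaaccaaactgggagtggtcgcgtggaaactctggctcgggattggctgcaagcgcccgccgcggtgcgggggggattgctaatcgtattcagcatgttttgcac
Hoxd13: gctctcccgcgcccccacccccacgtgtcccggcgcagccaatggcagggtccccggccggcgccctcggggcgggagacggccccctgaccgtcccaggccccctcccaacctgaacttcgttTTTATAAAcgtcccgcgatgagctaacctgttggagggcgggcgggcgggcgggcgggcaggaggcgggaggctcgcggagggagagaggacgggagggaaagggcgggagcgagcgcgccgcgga
Of 31 measured Hox genes 18 had a promoter in the table, 20 windows in all. The motif stood in 2 of the 20, against 4063 of 32851 windows of all genes (12.4%). In Hoxa10 it was on the opposite strand and began at position -160 from the start, and in Hoxd13 both orientations overlapped, at -126 and -124. These are matches of letters and not measured binding sites, and a window without them says nothing about TFIIA there. The Hox windows held a median of 13 CpG and 59.2% G or C, against 6 CpG and 52.4% over all windows. They spread widely, from 2 CpG before the outer Hoxd11 start to 35 before Hoxa13, with 3 before Hoxa9, 7 before Hoxa7, 14 before Hoxb4 and 28 before Hoxa5.

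One array was run per sample, and pairwise correlations over all probe sets were 0.966 to 0.991. Transcripts of the sorted population were present on all arrays: 15 measured stem cell and progenitor genes averaged 6.69 to 7.17, on the log2 scale of RMA intensity used for every level below. The array medians were 3.69 to 3.82. Endothelial genes set 3 arrays apart. A list of 20 averaged 6.25 in TFIIA nc/nc replicate 1, 6.66 in TFIIA nc/nc replicate 2 and 6.43 in the first wild-type array, while the other 4 arrays averaged 3.39 to 3.66. The same 3 arrays were highest for the means of 10 hepatocyte genes (4.43 to 5.26, against 3.42 to 3.70) and 13 mesenchymal genes (3.51 to 4.05, against 2.91 to 3.45). The mesenchymal mean leaned on Mest, the gene of widest range in its list, at 8.98, 9.52 and 8.97 against 3.345 to 4.00. Reln, a dim gene, split the arrays the same way. Col1a2 and Acta2 were instead highest in wild-type replicate 2, and Pdgfrb in wild-type replicate 4. The other lists averaged 2.60 to 4.76 for 11 macrophage genes, 3.72 to 4.46 for 6 erythroid genes and 3.95 to 4.31 for 8 granulocyte and lymphocyte genes. Over the groups, 19 of the 20 endothelial, 9 of the 10 hepatocyte, 9 of the 11 macrophage and 8 of the 13 mesenchymal genes had a higher mean in TFIIA nc/nc, and 10 of the 15 stem cell genes a lower one. In such sorted samples fewer cells of a type and less RNA per cell cannot be told apart.

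In these stem cells 6 of the 31 Hox genes had a mean at or above the median of the array medians, and all lay in HoxA or HoxB: Hoxa5, Hoxa7, Hoxa9, Hoxa10, Hoxb2 and Hoxb4. The other 25 (80.6%) lay below it, against 43.9% of all genes. A total of 23 were below the median on each of the 7 arrays. A signal depends on the probes as well as on the transcript, so each gene is set against its array and genes are not ranked against each other. RMA gives a value to every probe set, and a dim one need not measure a transcript.

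**Figure D1:**
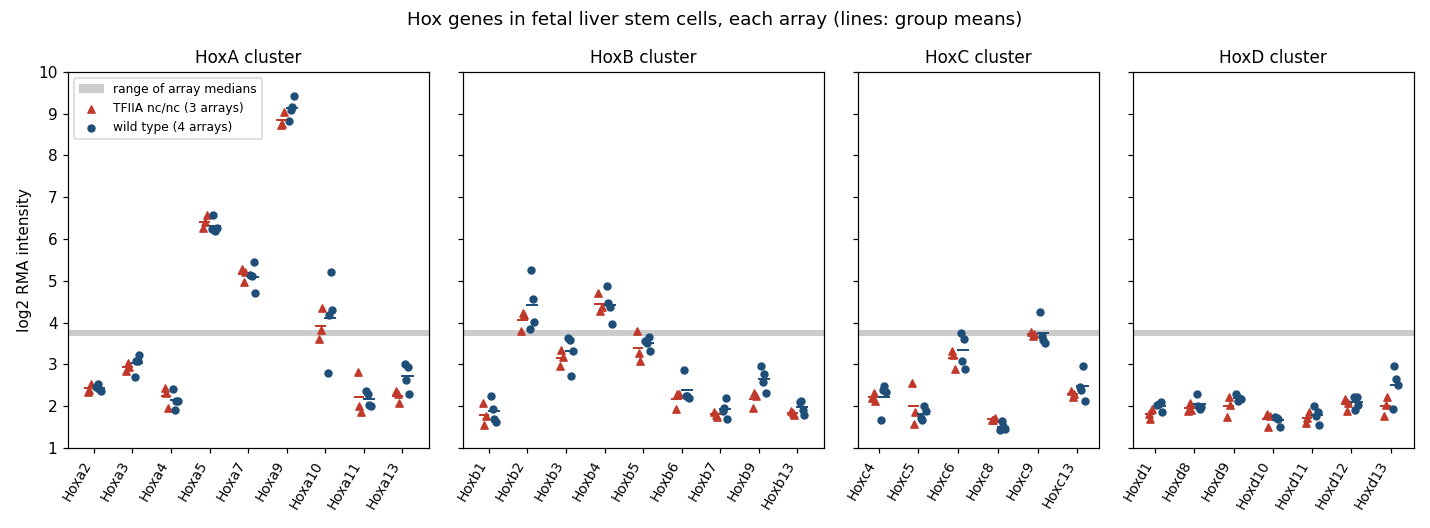
Log2 RMA intensity of the 31 Hox genes by cluster and paralog number, 1 point per array (red triangles, 3 TFIIA nc/nc arrays; blue circles, 4 wild-type arrays), with group means as short lines and the range of the array medians, 3.69 to 3.82, as a grey band. Hoxa9, Hoxa5, Hoxa7, Hoxb2 and Hoxb4 lie above their array's median on all 7 arrays, and all HoxD genes lie below.

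Hoxa9 (Entrez gene 15405), the HoxA gene best known from blood stem cells and leukaemia, gave a bright signal in both genotypes. It read 8.74, 8.76 and 9.04 in the TFIIA nc/nc samples and 8.82, 9.08, 9.16 and 9.43 in the wild-type samples. The groups overlapped, with wild-type replicate 1 below TFIIA nc/nc replicate 3. Between 94.4% and 96.3% of probe sets lay below it on each array. The means were 8.85 ± 0.17 (SD, n = 3) and 9.12 ± 0.25 (SD, n = 4), a difference of -0.28 (SE 0.18, 95% interval -0.68 to 0.12) that did not pass the threshold of 0.05 (limma, Benjamini-Hochberg adjusted p = 0.946). Differences here are TFIIA nc/nc minus wild type in log2 units. A second, dimmer Hoxa9 probe set read 5.50 to 6.02 in TFIIA nc/nc and 5.54 to 6.55 in wild type, a difference of -0.28. Both probe sets therefore differed in the same direction, with overlapping groups.

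Hoxa5 (Entrez gene 15402), which acts in lung and axial development and is also transcribed in blood progenitors, read 6.27, 6.40 and 6.56 in TFIIA nc/nc and 6.25, 6.58, 6.19 and 6.27 in wild type. The wild-type samples spanned the TFIIA nc/nc samples. The difference was 0.09 (SE 0.16, 95% interval -0.26 to 0.44; limma, Benjamini-Hochberg adjusted p = 0.968). Hoxa7 (Entrez gene 15404), a middle gene of the same cluster that MLL maintains, read 5.29, 4.96 and 5.21 against 5.13, 5.13, 5.45 and 4.71. Its lowest and its highest value were both wild type. It differed by 0.05 (SE 0.19, 95% interval -0.38 to 0.49; adjusted p = 0.977 in limma).

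Hoxa10 (Entrez gene 15395), which lies beside Hoxa9 and acts with it in blood progenitors, varied more than any other Hox gene here. It read 3.62, 3.83 and 4.34 in TFIIA nc/nc and 2.78, 4.17, 5.22 and 4.30 in wild type. Both extremes were wild type, replicates 1 and 3. Its range of 2.44 was larger than that of 98.7% of genes, while the median range was 0.71 over the Hox genes and 0.70 over all genes. The difference was -0.19 (SE 0.47, 95% interval -1.26 to 0.88; limma, Benjamini-Hochberg adjusted p = 0.977), the widest interval of the 31 genes. Among samples pooled from 2 or more embryos, which leaves out wild-type replicates 1 and 2, it was -0.83 (SE 0.32; limma, adjusted p = 0.386). The remaining HoxA genes were dim, with means of 2.18 to 2.98. They are Hoxa2, a hindbrain and pharyngeal arch gene, Hoxa3, Hoxa4, Hoxa11 and Hoxa13, the last a gene of limb and genital development.

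Hoxb4 (Entrez gene 15412), the HoxB gene used to expand blood stem cells, read 4.70, 4.27 and 4.36 in TFIIA nc/nc and 4.88, 4.46, 4.37 and 3.96 in wild type. The wild-type samples spanned the TFIIA nc/nc samples. It differed by 0.03 (SE 0.22, 95% interval -0.47 to 0.53; limma, Benjamini-Hochberg adjusted p = 0.992). A dimmer probe set for Hoxb4, at 2.25 to 2.83 over the arrays, differed by 0.20. Hoxb2, a hindbrain gene that stem cells also transcribe, read 3.79, 4.24 and 4.18 against 3.85, 5.26, 4.56 and 4.01. Wild-type replicate 2 was the high one, and the other arrays of both genotypes overlapped. The difference was -0.35 (SE 0.32, 95% interval -1.06 to 0.36; adjusted p = 0.946 in limma). Without wild-type replicate 2 it was -0.07. The other HoxB genes, Hoxb1, Hoxb3, Hoxb5, Hoxb6, Hoxb7, Hoxb9 and Hoxb13, had means of 1.84 to 3.46. Of these only Hoxb5 was above an array median, on TFIIA nc/nc replicate 1.

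The HoxC and HoxD genes, which pattern trunk, limb and genital tissue, had no member at or above the median level. HoxC values ran from 1.43 to 4.25. Hoxc9, another gene of the trunk, read 3.77, 3.68 and 3.72 in TFIIA nc/nc and 4.25, 3.69 and 3.58 in wild-type replicates 1 to 3, with replicate 4 lower still. It was above the array median in wild-type replicate 1 alone, and its mean of 3.74 was just below the median of the array medians, 3.77. Just above it was Hoxa10, at a mean of 4.04. HoxD values ran from 1.498 to 2.95, and the highest of them was Hoxd13, a gene of the digits, in wild-type replicate 2.

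No Hox gene passed the threshold between the genotypes, in either direction, and the largest difference over all 7 arrays was 0.51 in size. By limma 0 of 31 passed with Benjamini-Hochberg adjustment over all genes, where 1 of 12393 genes passed (0.00807%), and the adjusted p of the Hox genes was 0.946 to 0.995. At an unadjusted p under 0.05 there were 2 Hox genes (6.45%), both lower in TFIIA nc/nc, against 4.43% of all genes in either direction and 2.41% in the lower. The groups did not overlap for 2 Hox genes (6.45%), against 6.3% of all genes. One was lower, where 3.07% of all genes were, and one higher, where 3.23% were. The share of genes without overlap is near the background. That of lower genes by unadjusted p is above it, but rests on 2 genes. In either direction the count by unadjusted p was 0 with log2(value + 16), without TFIIA nc/nc replicate 1 and without wild-type replicate 3. It was 3 with array weights, with pooled samples only and with the replicate number as a block. The 95% interval lay between -1 and 1 for 28 of the 31, against 91.9% of all genes. The 3 wider ones were Hoxa10, Hoxb2 and Hoxd13.

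**Figure D2:**
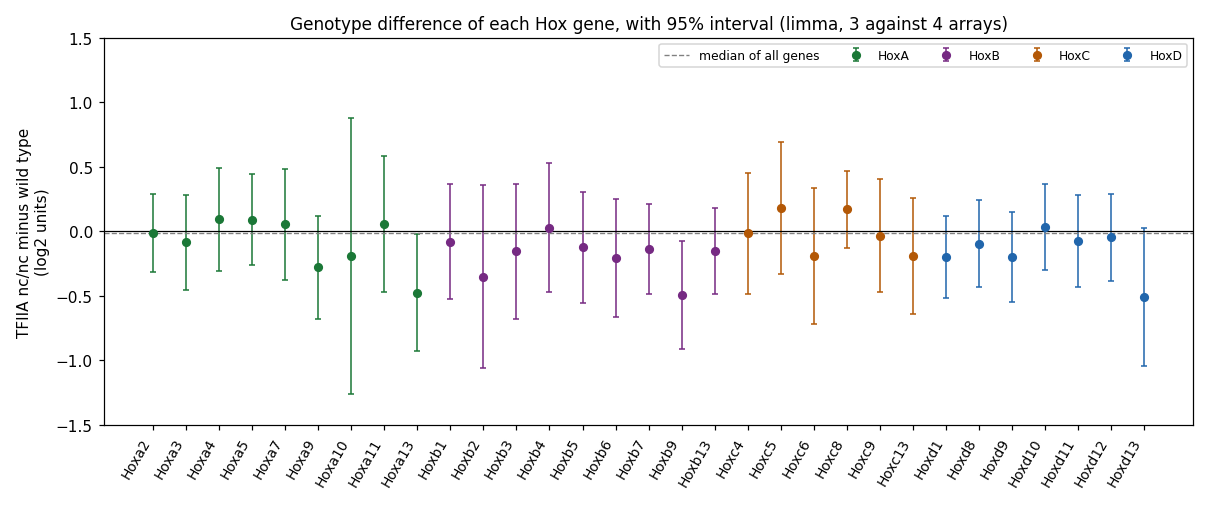
Difference of each Hox gene in log2 units, TFIIA nc/nc minus wild type, with its 95% interval from limma (3 against 4 arrays), coloured by cluster and ordered by paralog number; the dashed line is the median of all genes, -0.01. The intervals of 29 of 31 genes include 0, and the exceptions, Hoxa13 and Hoxb9, did not pass after adjustment.

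The smallest p-values belonged to dim genes of the late paralog groups. Hoxb9, a gene of the thoracic skeleton, read 1.95, 2.31 and 2.24 in TFIIA nc/nc and 2.97, 2.59, 2.76 and 2.32 in wild type. All TFIIA nc/nc values lay below all wild-type values, the nearest pair at 2.31 and 2.32. It differed by -0.49 (SE 0.19, 95% interval -0.91 to -0.07; limma, Benjamini-Hochberg adjusted p = 0.946). Hoxa13 read 2.37, 2.29 and 2.07 against 3.02, 2.63, 2.94 and 2.28, with wild-type replicate 4 inside the TFIIA nc/nc range, and differed by -0.48 (SE 0.20; limma, adjusted p = 0.946). Hoxd13, of the same paralog group, read 1.76, 2.03 and 2.22 against 1.94, 2.95, 2.64 and 2.51, with wild-type replicate 1 low, and differed by -0.51 (SE 0.24; limma, adjusted p = 0.946). At most 38.6% of probe sets were dimmer than any of these 3 on any array. With log2(value + 16) the differences of Hoxb9, Hoxa13 and Hoxd13 were -0.125, -0.128 and -0.125.

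The next lower genes by p were Hoxa9, described above, and Hoxd1, which read 1.81, 1.69 and 1.93 against 2.02, 2.06, 2.09 and 1.86 and differed by -0.20. On the higher side Hoxc8, a gene of the thoracic spine, read 1.66, 1.68 and 1.72 against 1.43, 1.64, 1.52 and 1.45. Its groups did not overlap, but at most 4.53% of probe sets were dimmer on any array, and the difference was 0.17 (SE 0.13; limma, adjusted p = 0.946). Hoxc5 differed by 0.18, with a single high value of 2.55 in the first TFIIA nc/nc sample, where the other 6 arrays read 1.58 to 2.01. Hoxa4 differed by 0.09, from 1.97 to 2.44 in TFIIA nc/nc and 1.91 to 2.41 in wild type.

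By sign, 23 of the 31 Hox genes (74.2%) had a lower mean in TFIIA nc/nc, against 51.9% of all genes, and the median difference was -0.10 against -0.01. Since the genes share arrays and most are dim, these counts are a description with no test. Beside them, the stem cell list had 10 of 15 genes lower with a median of -0.15. The endothelial list had the largest median difference, 1.34, and the hepatocyte and macrophage lists had 0.47 and 0.43. Their part in the Hox counts was not tested. The lower genes were 5 of 9 in HoxA (median -0.01), 8 of 9 in HoxB (-0.15), 4 of 6 in HoxC (-0.02) and 6 of 7 in HoxD (-0.10). By paralog number they were 7 of 9 for groups 1 to 4 (median -0.08), 5 of 9 for groups 5 to 8 (-0.10) and 11 of 13 for groups 9 to 13 (-0.19). Among the 6 genes at or above the median level 3 were lower, and among the 25 dimmer ones 20. The median difference of all genes at or above the median level was 0.025, and the share of lower genes among all equally dim genes was not counted. The median level of the 31 genes was 2.37, 2.29 and 2.22 on the TFIIA nc/nc arrays and 2.46, 2.40, 2.49 and 2.28 on the wild-type arrays. Wild-type replicate 4 lay among the TFIIA nc/nc arrays. Without that array the median difference was -0.15, without wild-type replicate 3 it was -0.06 and without wild-type replicate 1 it was -0.05.

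**Figure D3:**
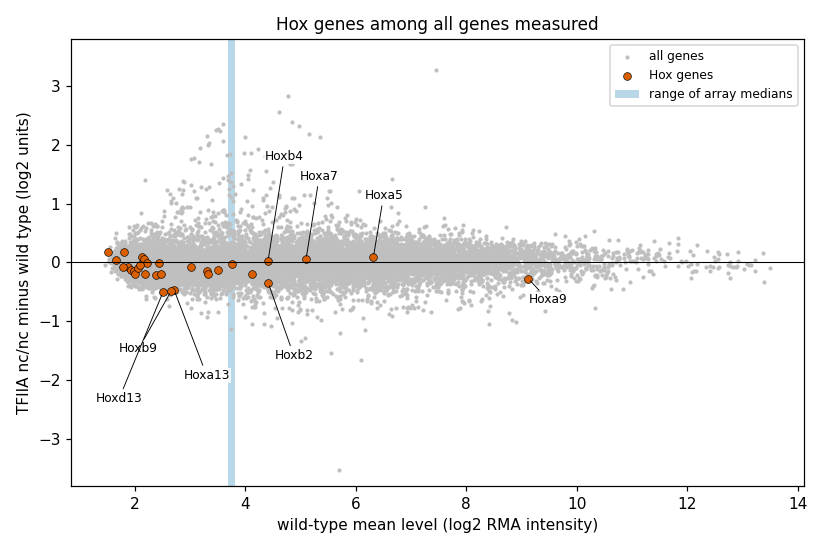
Genotype difference (TFIIA nc/nc minus wild type, log2 units) against the wild-type mean level for 12393 genes (grey) and the 31 Hox genes (orange); the blue band is the range of the array medians. Most Hox genes lie left of the band, and the lowest Hox differences, Hoxd13, Hoxb9 and Hoxa13 at -0.51, -0.49 and -0.48, belong to dim genes.

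The brighter Hoxa9 probe set and Hoxa10 were lowest where the endothelial transcripts were highest. The 3 arrays of high endothelial level held the 3 lowest values of that Hoxa9 probe set (8.74, 8.76 and 8.82, against 9.04 to 9.43) and of Hoxa10 (3.62, 3.83 and 2.78, against 4.17 to 5.22), across the genotypes. The dimmer Hoxa9 probe set did not separate them: it read 5.83, 5.50 and 6.17 on these arrays and 5.54 to 6.55 on the others. Hoxa5 did not either, at 6.25 to 6.40 against 6.19 to 6.58. For Hoxb4 they held the 2 highest values, 4.70 and 4.88, and also one of the lower, 4.27. Dim Hox genes split both ways. Hoxd13 was lowest on these arrays (1.76, 2.03 and 1.94, against 2.22 to 2.95). Hoxa4 was highest on them (2.44, 2.30 and 2.415, against 1.91 to 2.13). The share of all genes that split the arrays this way was not counted. The stem cell list averaged 6.69, 6.84 and 6.81 on these arrays and 6.92 to 7.17 on the others. Fitted with the endothelial mean, the Hoxa9 difference was -0.13 and that of Hoxa10 turned to 0.30, neither past the threshold (limma, adjusted p = 0.951 and 0.943). On the 4 other arrays, which hold a single TFIIA nc/nc sample assumed to vary like the wild type, they were -0.185 and -0.221. The part of the endothelial transcripts in these values was not tested beyond this.

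**Figure D4:**
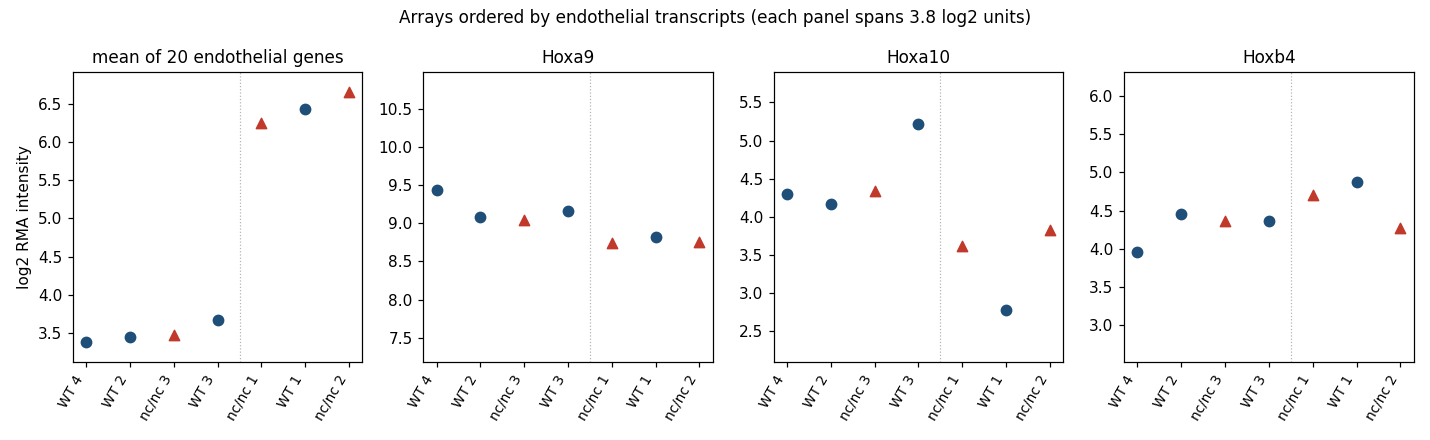
Log2 RMA intensity on each array, ordered in every panel by the mean of 20 endothelial genes (first panel), for Hoxa9 (its brighter probe set), Hoxa10 and Hoxb4; red triangles are TFIIA nc/nc and blue circles wild type, and the dotted line separates the 4 arrays at 3.39 to 3.66 from the 3 at 6.25 to 6.66. The 3 arrays on the right hold the lowest values of Hoxa10 and of this Hoxa9 probe set, which the dimmer Hoxa9 probe set does not repeat. Hoxa4, not drawn, is highest on those arrays.

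Genes that act with or on the Hox genes, that flank the clusters or that are reported Hoxa9 and Meis1 targets did not pass either. In limma 0 members of these 6 lists passed, higher or lower. In the same fit 3 of the 73 measured genes (4.11%) had an unadjusted p under 0.05, near the 4.43% of all genes. They were Mllt3, Flt3 and Lmo2, all lower, where 2.41% of all genes were. Of 8 measured TALE cofactors 5 were higher and 3 lower (median 0.02). Pbx2 differed by -0.21, Meis3 by -0.22 and Meis2 by 0.56. Meis2 read 4.46, 4.77 and 5.04 on the arrays of high endothelial level and 2.55 to 3.15 on the others. Pbx2 was lowest on those arrays, at 5.76, 5.95 and 5.92 against 5.97 to 6.62. Meis1, the main Hoxa9 partner in blood, which was picked for its role and after its values were seen, read 7.96, 8.14 and 8.18 in TFIIA nc/nc and 7.76, 8.32, 7.88 and 8.30 in wild type, a difference of 0.03 (SE 0.18).

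Among 15 measured genes of the MLL complex, its partners and the elongation factors tied to MLL 9 were higher and 6 lower (median 0.03). Dot1l was listed with them but is not among the 15. The reader of acetylated histones Mllt3 differed by -0.77 (SE 0.25), with wild-type replicate 1, at 6.13, below TFIIA nc/nc replicate 3, at 6.33. Mllt3 read 5.78, 5.76 and 6.13 on the arrays of high endothelial level and 6.33 to 7.07 on the others, across the genotypes. Tasp1, which encodes Taspase1, differed by 0.76 (SE 0.34) and the MLL subunit Men1 by -0.33. Kmt2a itself, named after its values were seen, read 5.55, 6.32 and 6.24 against 5.65, 6.90, 6.05 and 6.45 and differed by -0.23 (SE 0.30). Of 15 measured Polycomb subunits and H3K27 demethylases 5 were higher and 10 lower (median -0.07). The PRC1 subunit Cbx2 read 4.88, 4.33 and 4.77 against 4.91, 4.95, 5.02 and 5.02 and differed by -0.32 (SE 0.16), without overlap. Ring1, a PRC1 ubiquitin ligase, differed by -0.23 and Cbx8 by -0.17.

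The caudal factors Cdx1, Cdx2 and Cdx4, which switch on Hox genes in the embryo, were dim, from 1.56 to 2.66 over all arrays, and differed by -0.14, 0.17 and -0.06. Of 16 measured genes that flank the clusters 4 were higher and 12 lower (median -0.07). The 3 of smallest p were Snx11 beside HoxB at -0.26, Atp5g2 beside HoxC at -0.22 and the homeobox gene Evx2, next to Hoxd13, at 0.18. Skap2 beside HoxA, named after its values were seen, read 8.18 to 8.36 in TFIIA nc/nc and 7.59 to 8.30 in wild type. Among 16 genes named in blood cells as downstream of Hoxa9 and Meis1, 4 were higher and 12 lower (median -0.14). The cytokine receptor Flt3 differed by -0.77 (SE 0.24) and the transcription cofactor Lmo2 by -0.38 (SE 0.16), both without overlap of the groups, which held for 3.07% of all genes in the lower direction. Mycn differed by -0.45 (SE 0.23) with overlap. It read 8.96, 9.22 and 9.06 on the arrays of high endothelial level and 9.36 to 10.03 on the others. Lmo2 read 9.97, 9.89 and 9.91 against 10.12, 10.42, 10.55 and 10.15.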

How the data were processed

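Levels were measured on 7 Affymetrix arrays, 3 TFIIA nc/nc and 4 wild type, each from a sample the labels call a biological replicate. The authors deposited RMA intensities on a linear scale. Per the submitters' processing notes, Expression Console of Affymetrix made them, with no version in the sources used here. Here log2 was taken with no pseudocount. Of 22690 probe sets 64 controls were left out, 22626 were fitted, 20380 named a single gene, 691 several and 1555 none. Symbols came from the platform annotation, updated with RefSeq GRCm38.p6, which matched 12369 of 12393 genes. Genotype differences were fitted without covariates in limma 3.58.1 (lmFit, eBayes; R 4.3.3), checked on simulated data, with Benjamini-Hochberg adjustment over 12393 genes. Named were Hox genes past the threshold, at or above the median of the array medians, or among the 5 of smallest p per direction, with Hoxa9, Hoxa5, Hoxa7 and Hoxb4, and the 3 of smallest p in each context list. The members and lists were chosen with earlier results of these data known. Detection calls and scan dates were not used here, and the number of arrays limits the precision. Other settings covered the probe set, a filter on dim genes, the pseudocount, the normalization, moderation, array weights, covariates, subsets of arrays and the replicate number.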

Additional observations from a re-analysis of the deposited data

Results flagged for a closer look

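In the wild-type group 2 of 31 Hox genes had a single array far from the other 3, judged by its gap relative to the range of the group, and chance gives about 1 in 20. Hoxb6 read 2.86 in wild-type replicate 1, where the remaining wild-type arrays read 2.196 to 2.235, and TFIIA nc/nc read 1.93 to 2.30. Hoxd10 read 1.498 in wild-type replicate 4, where the remaining ones read 1.70 to 1.73, a value that TFIIA nc/nc replicate 2 also had. Both genes were below the array median on all arrays.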

How the results depend on the processing

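No Hox gene passed the threshold under any of 21 other settings, and the median Hox difference stayed negative in each, from -0.151 to -0.03, with the end nearest 0 at log2(value + 16). Leaving out 1 array at a time gave 0 Hox genes past the threshold, 1 to 3 of all genes (3 without wild-type replicate 1), 20 to 28 Hox genes lower and a median Hox difference of -0.151 to -0.048. Over all settings the Hoxa9 difference was -0.451 with pooled samples only to -0.132 with the endothelial mean as a covariate, with a smallest adjusted p of 0.422. Of all genes 0 passed without moderation of the spread and with the 4 arrays of low endothelial transcripts, 2 with embryo number as a covariate and 3 with pooled samples only. Among genes at or above the median level 3 of 6 Hox genes were lower. Small differences that changed sign were Hoxb4 with quantile normalization (-0.014) and array weights (-0.025), Hoxb4, Hoxa4 and Hoxa10 with the endothelial covariate (-0.124, -0.062 and 0.298), and Hoxa4 on the 4 arrays (-0.086). The cause was not tested. With arrays left out in turn, Hoxa4 ran from -0.009 to 0.23, Hoxa7 from -0.077 to 0.169, Hoxb4 from -0.124 to 0.182, Hoxc5 from -0.097 to 0.389, Hoxa10 from -0.635 to 0.178, Hoxa5 from 0.016 to 0.178 and Hoxb2 from -0.54 to -0.072. With pooled samples only Hoxa10 was -0.832. Over the other settings Hoxb9 ran from -0.603 to -0.125, Hoxa13 from -0.622 to -0.128 and Hoxd13 from -0.702 to -0.125. Each was nearest 0 at log2(value + 16). Deviations of same-numbered arrays correlated at 0.382, -0.193 and 0.105. Differently numbered arrays were not compared, so these values cannot decide whether the replicate numbers pair the samples. The first value joins 2 arrays of high endothelial level. With the replicate block 0 Hox genes and 1 gene of all passed, 26 Hox genes were lower with a median of -0.151, and Hoxa7 and Hoxb4 stood at -0.077 and -0.124. Wild-type replicate 4 has no partner and gives nothing to the difference in that fit, and these values equal those without it.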

Other observations

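Probe sets shared by 2 Hox genes were outside the comparison. The one for Hoxb8 and Hoxb7 read 2.37, 2.09 and 2.52 in TFIIA nc/nc and 3.30, 2.56, 2.87 and 2.43 in wild type. The 2 for Hoxd4 and Hoxd3 ran from 2.59 to 3.09 and from 2.06 to 2.82. Dimmer probe sets of Hoxa3 and Hoxc6 differed by -0.29 and -0.30, where those used differed by -0.08 and -0.19. The third Hoxc6 probe set differed by -0.05, and the dimmer Hoxa4 one by -0.04 where the one used differed by 0.09.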
